A study of Drosophila melanogaster with 11 samples.

Results

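The salivary glue genes Sgs1, Sgs3, Sgs4, Sgs5, Sgs7 and Sgs8 of Drosophila melanogaster were followed in RNA-seq libraries of dissected larval fat body. They were taken by name, by matching their FlyBase symbols to the gene identifiers of the count table, with earlier results of these data known. All 6 were found among the 13931 genes of the table. Glue proteins are the secretory product that the larval salivary gland stores in granules late in the final larval instar and expels at pupariation, when the mixture hardens and fixes the puparium to its substrate. Their transcription in the salivary gland depends on the steroid hormone ecdysone, is induced in the middle of the final instar and ends around pupariation, and the genes lie at the sites of large intermoult puffs of the polytene chromosomes. The fat body, in contrast, is the larval organ of storage and intermediary metabolism and is known for larval serum proteins rather than for glue. Sgs1, Sgs3 and Sgs4 encode mucin-like proteins with long stretches of repeats that carry many sugar chains, whereas Sgs5, Sgs7 and Sgs8 encode small cysteine-rich proteins without such repeats.

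The libraries came from 5 isofemale strains, each founded by a single wild-caught female, of a German population. The strains were MU10, MU12, MU17 and MU26, with 2 libraries each, and MU14, with 3 libraries. Every library was made from poly-A RNA of a pool of fat bodies dissected from female larvae at the late wandering stage of the final instar, recognised by the colour of their gut after feeding on dyed medium, and no strain carried a transgene or received a treatment. The comparison of strains asks how much fat body expression varies within a single derived population at this stage. A strain stands here for 1 genotype background and not for a population, and stage was set by gut colour, so that a difference in timing within the stage and a difference between genotypes cannot be told apart.

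Sgs1 (FBgn0003372) lies on chromosome arm 2L at 4937409 to 4941423 on the plus strand and has 2 exons. Sgs3 (FBgn0003373) at 3L 11512221 to 11513402, plus strand, Sgs7 (FBgn0003377) at 3L 11509861 to 11510247, plus strand, and Sgs8 (FBgn0003378) at 3L 11508967 to 11509394, minus strand, have 2 exons each and form the cluster of the 68C puff, in which Sgs7 and Sgs8 are divergently transcribed from starts on either side of a gap of 466 bases. Sgs4 (FBgn0003374) is a gene of 1 exon on the X chromosome at 3250089 to 3251040, plus strand, and lies within the span of dnc, a phosphodiesterase gene, where dnc has no exon. Sgs5 (FBgn0003375) has 3 exons and lies on 3R at 17595362 to 17596112, plus strand. Positions are those of the Release 6 genome assembly. No exon of another gene falls inside any of the 6 genes, and each is annotated with 1 transcript.

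Glue transcripts were detected in all 11 libraries, but they made up very little of the fat body RNA. Summed over the 6 genes, they took between 0.000333% (95% exact binomial interval 0.000276% to 0.000398%) and 0.0131% (0.0128% to 0.0135%) of the counts of a library. Total counts were between 34631482 and 49582725 per library. Levels below are in CPM, a gene's count set against the TMM-scaled total of its library, which puts libraries of different depth on a common footing. The labelled tissue was borne out by its own markers: the 8 fat body genes examined, among them the larval serum protein genes, summed to between 300168 and 456869 CPM. Averaged over the libraries, Sgs3 was the most abundant glue gene in CPM, with 72.1% of the genes in the table below it, and Sgs1 was the least abundant, with 45.6% below it. On the scale of CPM per kilobase of gene length, which permits genes to be compared, Sgs7 was highest with 26.3 and 88.8% of genes below it, followed by Sgs3 with 12.1, Sgs8 with 9.34, Sgs5 with 6.22, Sgs4 with 5.02 and Sgs1 with 0.246.

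By their sum the glue genes were lowest in MU10 and highest in MU14 and MU17. The summed level was 6.02 and 3.50 CPM in MU10, while MU12 had 14.8 and 12.9, MU14 had 96.4, 30.7 and 34.5, MU17 had 44.8 and 113 and MU26 had 17.0 and 10.9. Every library of MU14 and MU17 was thus above every library of the other 3 strains, and both MU10 libraries were below all others, while MU14 and MU17 overlapped and so did MU12 and MU26. The strain means were 4.76 ± 1.78 CPM in MU10 (SD, n = 2), 13.9 ± 1.35 in MU12 (n = 2), 53.9 ± 36.9 in MU14 (n = 3), 78.7 ± 48.0 in MU17 (n = 2) and 13.9 ± 4.33 in MU26 (n = 2). The MU17 mean was 16.5-fold that of MU10, and this became 9.46-fold without MU17 replicate 2, which also placed MU14 above MU17. In bulk RNA, fewer cells that express a gene and less of its RNA per cell cannot be told apart.

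**Figure D1:**
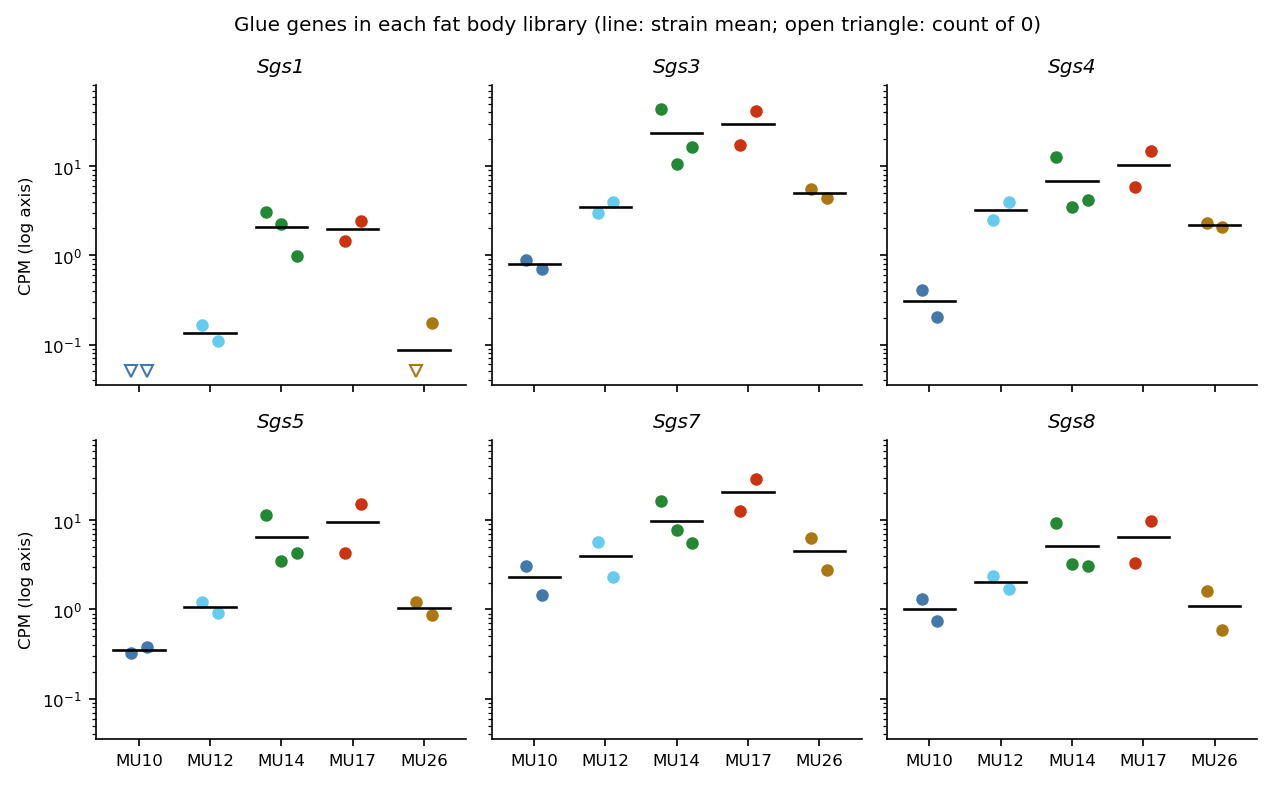
Level of each glue gene in CPM (logarithmic axis) in every library, by strain. Points are libraries, lines are strain means and open triangles mark libraries with a count of 0, drawn at an arbitrary height. All 6 genes were higher in each MU14 and MU17 library than in either MU10 library.

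Sgs1, a large mucin gene, came nearest to presence and absence. It had no count in MU10 replicates 1 and 2, whereas MU12 had 7 and 4, MU14 had 115, 92 and 41, MU17 had 64 and 116, and MU26 had 0 and 5. In CPM the MU12 libraries were at 0.164 and 0.109, those of MU14 at 3.06, 2.26 and 0.995, those of MU17 at 1.47 and 2.46, and the MU26 library with a count at 0.173. The ranges of MU14 and MU17 overlapped each other and lay well above the rest. Over both MU10 libraries a count of 0 allows up to 0.0374 CPM (3 counts). The MU14 mean of 2.10 CPM was 56.3-fold this limit, and the MU17 mean of 1.96 CPM was 52.5-fold. Only the MU10 side is bounded in these folds, and single libraries went down to 0.995 CPM in MU14 and 1.47 in MU17. Sgs1 passed the filter for testing, a mean of 15 counts per library, only through MU14 and MU17, where it averaged 85.6 counts against 2.67 in the other libraries. A test of Sgs1 between strains would be conditional on the strains in which it is high, so Sgs1 is described by its levels alone and enters no count of called genes below. The other 5 members averaged at least 29.3 counts in MU10, MU12 and MU26 too.

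Sgs3, the mucin gene of the 68C cluster, gave the most counts of the 6. It was at 0.885 and 0.706 CPM in MU10, while MU12 had 2.98 and 3.96, MU14 had 43.5, 10.5 and 16.4, MU17 had 17.2 and 41.8 and MU26 had 5.54 and 4.37. MU10, MU12 and MU26 each had closely spaced libraries that did not overlap with one another, in that rising order, and MU14 and MU17 lay above them and overlapped. Its mean rose from 0.796 ± 0.127 CPM in MU10 (SD, n = 2) to 29.5 ± 17.4 in MU17 (n = 2).

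Sgs7 and Sgs8, the small cysteine-rich neighbours of Sgs3, spread less between strains. Sgs7 was at 3.11 and 1.47 CPM in MU10, while MU12 had 5.63 and 2.31, MU14 had 16.3, 7.78 and 5.49, MU17 had 12.6 and 29.0 and MU26 had 6.30 and 2.77. Its MU10, MU12 and MU26 ranges overlapped, MU12 and MU26 reached into the range of MU14, and MU17 was clear of these 3 lower strains only. Sgs8 was at 1.30 and 0.735 CPM in MU10, while MU12 had 2.37 and 1.68, MU14 had 9.28, 3.22 and 3.08, MU17 had 3.32 and 9.70 and MU26 had 1.62 and 0.590. The MU26 range enclosed that of MU10 and held the lowest library, and MU10 was the lowest strain by its mean of 1.02 CPM against 1.10 in MU26, an order that was turned when libraries were scaled by total counts alone.

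Sgs4, the mucin gene of the X chromosome, and Sgs5, a cysteine-rich gene of 3R, lie apart from the other members. Sgs4 was at 0.410 and 0.206 CPM in MU10, while MU12 had 2.49 and 3.94, MU14 had 12.8, 3.49 and 4.22, MU17 had 5.86 and 14.8 and MU26 had 2.31 and 2.08. As for Sgs7, the higher MU12 library lay within the range of MU14, but both MU10 libraries were far below all the rest. Sgs5 was at 0.324 and 0.382 CPM in MU10, while MU12 had 1.20 and 0.923, MU14 had 11.5, 3.46 and 4.32, MU17 had 4.33 and 14.999 and MU26 had 1.20 and 0.867. Here MU12 and MU26 covered nearly the same range, MU10 was below them, and MU14 and MU17 were above them.

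The 5 glue genes other than Sgs1 were all called as different across the 5 strains (edgeR quasi-likelihood test, Benjamini-Hochberg adjusted over 8415 tested genes). At the same threshold of 0.05, 48.3% of all tested genes were called, so that a call is common in this table. The strain means of these 5 genes spanned a median log2 range of 4.59, against 0.78 over all tested genes. The adjusted p was 0.0026 for Sgs3, 0.0082 for Sgs4, 0.0040 for Sgs5, 0.024 for Sgs7 and 0.032 for Sgs8 with edgeR. Over all alternatives the adjusted p of Sgs7 reached 0.12 and that of Sgs8 0.13. The call was lost for Sgs7 without MU10 replicate 2 or MU17 replicate 2, and for Sgs8 without MU10 replicate 1 or 2, MU12 replicate 2, MU17 replicate 2 or MU26 replicate 2, and limma-voom called 1 of the 5 genes, Sgs3.

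Compared pair by pair, 20 of the 50 tests of these 5 genes in 10 strain pairs were called. MU17 was higher than MU10 for all 5 genes, against 9.76% of all tested genes higher in MU17 in that pair. The log2 difference was 5.20 ± 0.78 for Sgs3 (SE, edgeR adjusted p = 0.0031), 5.01 ± 0.83 for Sgs4 (0.0050), 4.77 ± 0.82 for Sgs5 (0.0057), 3.17 ± 0.74 for Sgs7 (0.021) and 2.66 ± 0.75 for Sgs8 (0.041). The fitted fold was 36.6 for Sgs3, 32.2 for Sgs4 and 27.4 for Sgs5, and 8.98 for Sgs7 and 6.32 for Sgs8. Whether these folds differ from one another was not tested. Without MU10 replicate 1 only 2 genes, Sgs3 and Sgs4, were called in this pair, and 3 without MU10 replicate 2 or MU17 replicate 2, with Sgs7 and Sgs8 lost each time, and Sgs8 alone was lost without MU14 replicate 2.

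MU14 was higher than MU10 for 3 of the 5 genes, Sgs3, Sgs4 and Sgs5, against 9.63% of tested genes. Their log2 differences were 4.86 ± 0.75 for Sgs3 (edgeR adjusted p = 0.0034), 4.41 ± 0.80 for Sgs4 (0.0071) and 4.19 ± 0.79 for Sgs5 (0.0083). Sgs7 with 2.09 ± 0.68 (0.065) and Sgs8 with 2.33 ± 0.72 (0.053) missed the threshold. MU10 was also below MU12 in Sgs4, by 3.32 ± 0.83 (0.024; 10.1% of tested genes were lower in MU10), and below MU26 in Sgs3, by 2.62 ± 0.75 (0.047; 6.99%). The number of called genes fell to 1 against MU14 without either MU10 library and rose to 4 there without either MU17 library. It fell to 0 against MU12 without either MU10 library or MU12 replicate 2, and to 0 against MU26 without either library of MU10, MU12 or MU26 or without MU14 replicate 3, and it rose to 2 against MU12 and against MU26 without MU14 replicate 1.

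MU12 and MU26, the strains of intermediate level, were both below MU14 and below MU17 in Sgs3 and Sgs5. MU12 was lower than MU14 in these genes (13.3% of tested genes lower in MU12) and lower than MU17 in these and Sgs7 (10.4%). MU26 was lower than MU14 in Sgs3 and Sgs5 (10.6% higher in MU14) and lower than MU17 in these and Sgs8 (11.2% higher in MU17). The largest of these differences on the log2 scale was that of Sgs5 between MU17 and MU26, 3.22 ± 0.74 (edgeR adjusted p = 0.017), and the smallest was that of Sgs3 between MU14 and MU26, 2.24 ± 0.63 (0.039). The calls of MU12 against MU14 fell to 0 without either MU12 library, and those of MU12 against MU17 fell to 0 without either MU12 library or MU17 replicate 2, Sgs5 against MU14 was lost without MU14 replicate 1, and Sgs7 against MU17 was lost also without either MU10 library or MU14 replicate 2. Between MU14 and MU26, 0 of the 5 genes were called without MU10 replicate 2, MU14 replicate 1 or either MU26 library, 1 without MU10 replicate 1 and 3 without either MU17 library. Between MU17 and MU26, 0 were called without MU17 replicate 2 or either MU26 library and 5 without MU14 replicate 1, Sgs8 being lost in 9 of the 11 fits that left out a library.

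MU14 and MU17, the neighbours at the top of the order, were not separated for any of the 5 genes, and neither were MU12 and MU26 in the middle. In both pairs edgeR called 0 of the 5 tested genes (8.2% of tested genes were higher in MU14 and 8.38% in MU17, and 13.2% were higher in MU12 and 11.9% in MU26), 0 genes had an unadjusted p under 0.05, and DESeq2 and limma-voom called 0. The log2 difference of MU17 over MU14 was between 0.33 ± 0.56 for Sgs3 and 1.08 ± 0.60 for Sgs7. The log2 difference of MU12 over MU26 ran from -0.52 ± 0.66 for Sgs3 to 0.87 ± 0.77 for Sgs8, with 3 of the 5 genes higher in MU12. With standard errors of this size, differences of about 1 log2 unit were not detectable.

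**Figure D2:**
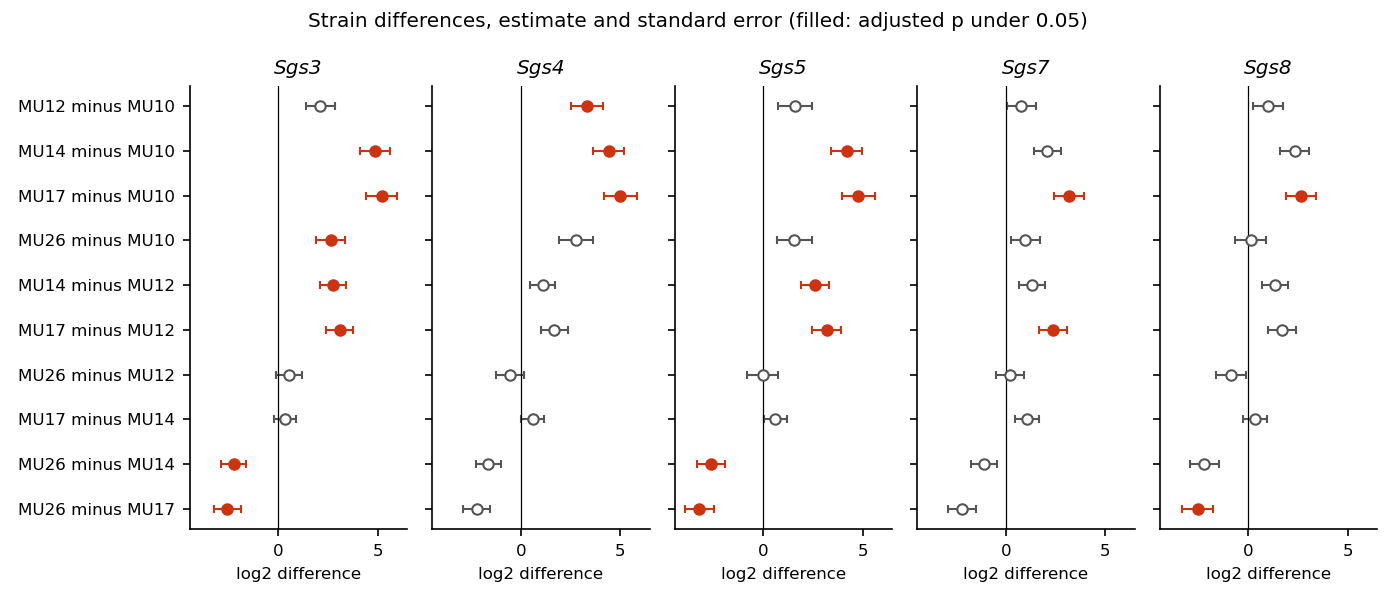
Log2 difference between strains with its standard error for 5 glue genes in the 10 strain pairs (edgeR, Sgs1 is left out because it passed the filter only through MU14 and MU17). Filled points have an adjusted p under 0.05. The differences of MU14 and MU17 from MU10 reach 4.19 to 5.20 for Sgs3, Sgs4 and Sgs5 and 2.09 to 3.17 for Sgs7 and Sgs8.

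Set against the average of the other 4 strains on the log scale, 11 of 25 tests were called. All 5 genes were higher in MU17 (10.4% of tested genes were), with log2 differences of 2.80 ± 0.43 for Sgs3 (edgeR adjusted p = 0.0035), 2.38 ± 0.46 for Sgs4 (0.0091), 2.94 ± 0.46 for Sgs5 (0.0037), 2.21 ± 0.47 for Sgs7 (0.013) and 1.81 ± 0.50 for Sgs8 (0.036). In MU14 Sgs3, Sgs4 and Sgs5 were higher (12.1%), by 2.38 ± 0.40 for Sgs3 (0.0046), 1.63 ± 0.43 for Sgs4 (0.030) and 2.20 ± 0.44 for Sgs5 (0.0092), while Sgs7 with 0.85 ± 0.45 (0.21) and Sgs8 with 1.39 ± 0.46 (0.061) were not called. These 3 genes were also lower in MU10 (7.52%), by 3.70 ± 0.69 for Sgs3 (0.0085), 3.88 ± 0.75 for Sgs4 (0.010) and 3.03 ± 0.73 for Sgs5 (0.024). For MU12 (14.4% of tested genes higher, 11.4% lower) and MU26 (10.9% and 10.6%) edgeR called 0 of 5 genes, with 0 at an unadjusted p under 0.05 and 0 by DESeq2 or limma-voom. Without MU17 replicate 2, 0 genes were called in MU17, with Sgs3 at 0.055, Sgs4 at 0.15, Sgs5 at 0.075, Sgs7 at 0.19 and Sgs8 at 0.48, each the highest adjusted p of any alternative, and Sgs8 was lost in 7 of the 11 fits that left out a library. Without either MU10 library 0 genes were called in MU10, and Sgs4 in MU14 was lost without MU10 replicate 2, MU12 replicate 1, MU14 replicate 1 or either MU26 library.

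The make-up of the glue counts also varied between libraries. In MU10 the small genes Sgs7 and Sgs8 led: Sgs7 held 51.6% and 42.0% of the glue counts and Sgs8 21.5% and 21.0%, against 14.7% and 20.2% for Sgs3. In MU14 Sgs3 led by counts, with 45.1%, 34.1% and 47.6%, and Sgs7 held 16.9%, 25.4% and 15.9% and Sgs8 9.62%, 10.5% and 8.92%. Sgs3 also led in MU17, at 38.3% and 37.1%, with Sgs7 at 28.2% and 25.7%. The Sgs8 share of both MU10 libraries was above that of all other libraries, and the Sgs3 share of MU10 and MU12 replicate 1 was below that of all others. The MU12 libraries did not match each other: Sgs7 held 38.0% in replicate 1 and 17.9% in replicate 2, and Sgs4 16.8% and 30.5%. These shares are descriptions, with no test, and as shares of counts they weight long genes more than short ones.

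**Figure D3:**
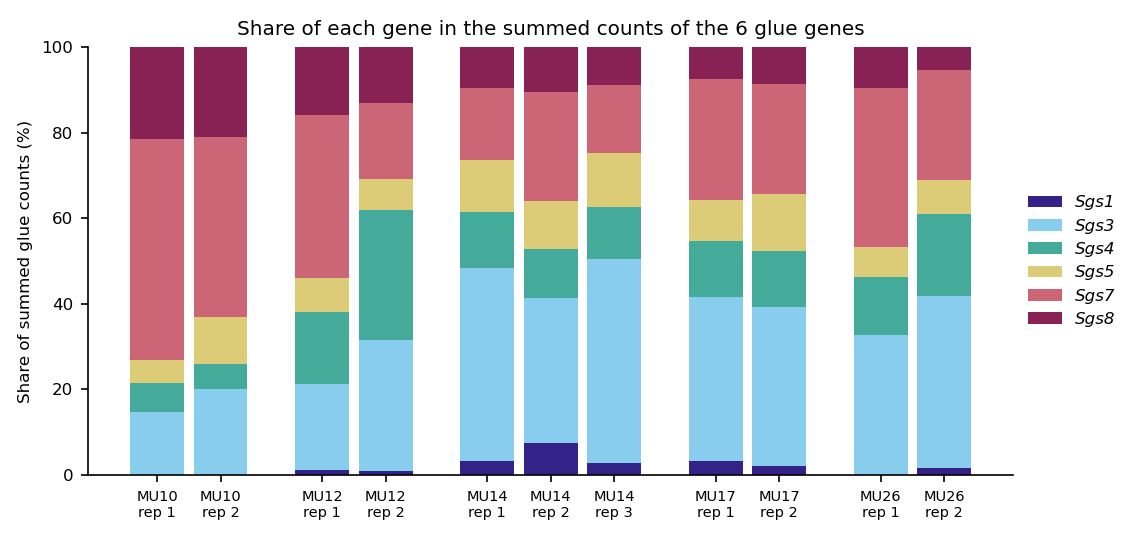
Share of each of the 6 glue genes in their summed counts, 1 bar per library (percent). Sgs7 and Sgs8 together fill most of both MU10 bars, and Sgs3 is the widest band in each MU14 and MU17 bar. The shares are of counts and are not scaled by gene length.

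Replicates of MU14 and of MU17 lay several-fold apart, and in each of these strains one library was the highest for all 6 glue genes. MU14 replicate 1 exceeded replicate 2 by 4.16-fold for Sgs3 (95% exact counting interval 3.74 to 4.64), 3.66-fold for Sgs4 (3.03 to 4.45) and 3.33-fold for Sgs5 (2.75 to 4.06), and it exceeded replicate 3 by 3.07-fold for Sgs1 (2.13 to 4.50), 3.01-fold for Sgs8 (2.45 to 3.72) and 2.97-fold for Sgs7 (2.54 to 3.47), the lowest MU14 library being taken for each gene. MU17 replicate 2 exceeded replicate 1 by 1.68-fold for Sgs1 (1.22 to 2.31) to 3.46-fold for Sgs5 (2.95 to 4.09). The other strains had no such common order. In MU12, Sgs3 and Sgs4 were higher in replicate 2, by 1.33-fold (1.04 to 1.70) and 1.58-fold (1.22 to 2.05), whereas the other members were higher in replicate 1, Sgs7 by 2.44-fold (1.90 to 3.16). Replicate 1 was the higher one in MU10 for Sgs3, Sgs4, Sgs7 and Sgs8 but not for Sgs5, and in MU26 for every member but Sgs1. The biological coefficient of variation fitted for the members was between 0.432 for Sgs3 and 0.486 for Sgs8, above that of 94.8% to 96.5% of the tested genes, against a common value of 0.225.

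Across the 11 libraries the levels of the glue genes varied together. On the log2 scale Pearson's r over the 15 pairs of members was between 0.79, for Sgs1 with Sgs7, and 0.98, for Sgs3 with Sgs5, and Spearman's rho was between 0.76 and 0.95. Without the 2 libraries farthest from the median r was between 0.68 and 0.96. When each library was expressed as its deviation from the strain mean, Sgs3 with Sgs4 reached 0.96 and Sgs7 with its divergent neighbour Sgs8 0.93, whereas Sgs1 gave no more than 0.32 with any other member. In strains with 2 libraries the deviations mirror each other, so the correlations of deviations rest on fewer than 11 independent points. The libraries are shared between the genes of each pair, so all these values are descriptions, and those of Sgs1 rest on few counts in the low strains.

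The ratio between divergently transcribed Sgs7 and Sgs8 was among the steadier ones. The SD of their log2 ratio over the 11 libraries was 0.54, against 1.28 for Sgs7 and 1.26 for Sgs8 alone. Sgs3 and Sgs5, which lie on different chromosome arms, were steadier still, with an SD of 0.45 against 1.96 and 1.79. Sgs3 and Sgs7, members of the same cluster, were looser, with an SD of 1.04. The steadiest of the 15 ratios was thus not one between neighbours.

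Sgs5 stood apart from its tandem neighbour in MU14. Sgs5bis (FBgn0038523), a related gene of the same kind, lies 304 bases from Sgs5 and is its nearest neighbour. Sgs5bis had 31 and 27 counts in MU10, while MU12 had 51 and 49, MU14 had 37, 11 and 11, MU17 had 164 and 460 and MU26 had 57 and 29. Sgs5 outnumbered it 11.7, 12.8 and 16.2 times in the MU14 libraries, whereas the ratio was 0.484 and 0.481 in MU10, 1 and 0.694 for the MU12 libraries, 1.15 and 1.54 for those of MU17, and 0.667 and 0.862 for those of MU26. MU14 was thus high in Sgs5 and, by its mean of 0.507 CPM, the lowest strain in Sgs5bis. It was not separated from MU10 in Sgs5bis, where MU10 was higher by 0.54 ± 0.65 on the log2 scale (edgeR adjusted p = 0.62). MU14 replicate 1, at 0.984 CPM, was above both MU10 libraries, at 0.669 and 0.794. The MU14 ratios of Sgs5 to Sgs5bis did not overlap with those of any other strain. This ratio was chosen after its values were seen and is given with no test.

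By the fit across all genes, Sgs5bis differed between MU14 and MU17 by 3.74 ± 0.59 on the log2 scale (edgeR adjusted p = 0.0041), the pair in which Sgs5 differed by 0.59 ± 0.58 (0.53). It was higher in MU17 than in the other strains, by 2.91 ± 0.41 (0.0022), and lower in MU14, by 1.77 ± 0.50 (0.036, and up to 0.16 over the alternatives, the call being lost without any library of MU10 or MU12, MU14 replicate 2 or 3, or MU26 replicate 1). Read pairs that fitted more than 1 gene were discarded by the authors, and the part that shared sequence between these related genes plays in the ratio was not tested.

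**Figure D4:**
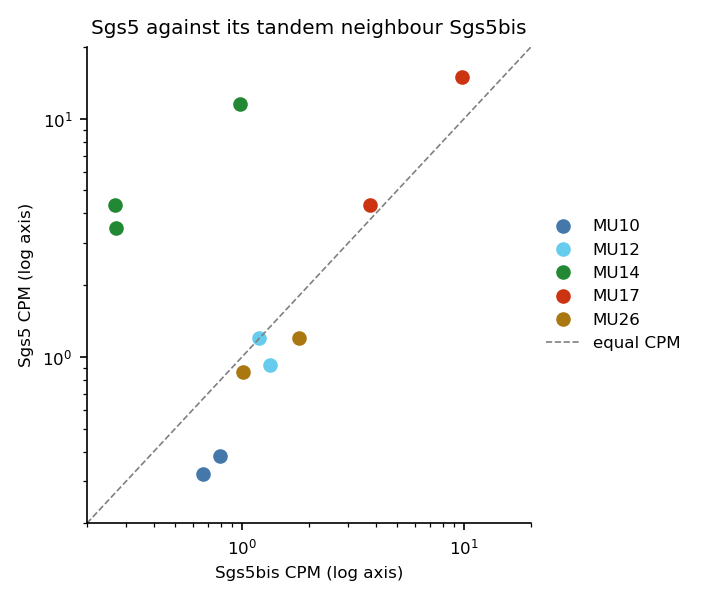
Sgs5 against Sgs5bis in CPM, 1 point per library, both axes logarithmic. The dashed line marks equal levels. The 3 MU14 libraries lie far above it, with 11.7 to 16.2 Sgs5 counts per Sgs5bis count, and the other 8 libraries lie near it, at 0.481 to 1.54.

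Most genes on either side of the other members were close to silent. Beside Sgs1, hoe2 had 0 to 5 counts and synr 0 to 4 counts per library. In the 68C cluster CG33272, between Sgs7 and Sgs3, had 0 counts throughout, CG7512, next to Sgs3, 0 to 3 and CG33500, next to Sgs8, 0 to 1. Pig1, a salivary gland gene near Sgs4, had 0 to 6. CG7606 on the far side of Sgs5 was expressed, with 17 to 273 counts and its highest level, 5.78 CPM, in MU17 replicate 2 (edgeR adjusted p = 0.041 across strains, and between 0.0015 and 0.49 over the alternatives). Around Sgs4, dnc, whose span holds the gene, stayed between 14.7 and 25.9 CPM (0.53), and Myc, the nearest gene on the other side at a distance of 122118 bases, was at 4.01 to 12.1 CPM (0.0023).

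Of 7 other genes of the salivary glue and intermoult program, 4 had a count and 2, Sgs5bis and Eig71Ee, had enough counts to be tested. Both were called across strains, as were 48.3% of all tested genes. Eig71Ee, which encodes another mucin-like glue component, was at 0.194 and 0.176 CPM in MU10, while MU12 had 1.76 and 1.41, MU14 had 7.76, 1.79 and 3.35, MU17 had 7.26 and 33.4 and MU26 had 1.20 and 0.763. MU10 was lowest and MU17 highest, as for the summed glue level, but MU14 reached down to the level of MU12. It was 4.26 ± 0.52 log2 units higher in MU17 than in the other strains (edgeR adjusted p = 0.0010), and its call across strains (0.0028) was lost with limma-voom (0.20), the highest over the alternatives. The rest of the list was near 0, with 16 counts over all libraries for Pig1, 2 for ng3, and none for ng1, ng2 and ng4.

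Regulators and enzymes that define the salivary gland were scarce. Of 7 listed genes, fkh, the forkhead factor needed for gland formation, had 49 counts over all libraries, sage, a gland-specific bHLH factor, 131, sens 3, and the prolyl hydroxylases PH4alphaSG1 and PH4alphaSG2 3 and 1. By library, fkh was between 0 and 0.237 CPM, with its highest value in MU10 and no count in MU26, and sage was between 0.0588 in MU10 replicate 2 and 0.763 in MU17 replicate 2, with 0.481 in MU17 replicate 1 and no more than 0.372 elsewhere. CrebA, a regulator of secretion in many tissues, was at 8.29 to 51.9 CPM, and pgant9, a glycosyltransferase gene, at 0.867 to 2.58. By edgeR 0 of these 2 tested genes were called across strains, with adjusted p of 0.053 and 0.055, both had an unadjusted p under 0.05 (0.026 and 0.027), DESeq2 called both and limma-voom neither. The summed level of the list was 13.0 to 21.3 CPM in MU10, 29.2 to 54.5 in MU12, 11.3 to 19.4 in MU14, 21.6 to 49.8 in MU17 and 13.1 to 18.1 in MU26, and most of it came from CrebA. The single genes did not share an order: sage was lowest in a MU10 library and highest in both MU17 libraries, whereas fkh was highest in MU10. Both had too few counts to be tested. Over the 11 libraries the summed list had r = 0.002 and Spearman's rho = 0.06 with the summed glue level. As most of the sum is CrebA, these values mainly describe CrebA and not the scarce gland-specific genes. Whether salivary gland RNA contributed to the libraries was not tested.

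Ecdysone acts upstream of the glue genes, so the hormone's receptor and early response genes were examined as a list of 11, all tested. Across strains 2 were called, against the 48.3% of all tested genes. Eip75B, a nuclear receptor gene of the early response, was lowest in MU12 with 197 CPM and highest in MU26 with 507 (edgeR adjusted p = 0.0013), and Eip74EF was lowest in MU12 with 233 CPM and highest in MU10 with 408 (0.035, and up to 0.18 over the alternatives). The call of Eip74EF was lost with upper-quartile and with total-count scaling. The part of ecdysone in the glue levels was not tested.

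Marker lists of other cell types differed in the share of genes called across strains, which stands against 48.3% of all tested genes. Muscle with 30% and cuticle with 40% of tested genes called were below that share. Of the tested genes, 0 of 4 were called for nervous system, 0 of 2 for malpighian tubule and 0 of 1 for prothoracic gland. For midgut 2 of 4 were called. Of 7 female germ line genes 5 were tested and all 5 called across strains, and their summed level was 16.2 to 22.6 CPM in MU14 against 5.09 to 8.79 in the other strains, MU17 included. Of 10 muscle genes 3 were called, and the sum was 80.2 to 101 CPM in MU17 against 23.2 to 41.5 elsewhere, MU14 included, most of it from bt with a mean of 69.0 CPM in MU17. Of 9 haemocyte genes all 9 were called, with sums of 228 to 290 CPM in MU10, 145 to 166 in MU12, 237 to 246 in MU14, 201 to 218 in MU17 and 90.5 to 92.5 in MU26. Of 8 cuticle genes 5 were tested and 2 called, and their sum, nearly all from Cpr49Ac, ran opposite to the glue level, with r = -0.81 over the 11 libraries. It was 8479 to 8699 CPM in MU10 and 7769 to 8257 in MU26, against 5310 to 5686 in MU12, 4228 to 4914 in MU17 and 2843 to 4050 in MU14. MU14 replicate 1 and MU17 replicate 2, the libraries highest in glue, were below the other libraries of their strains in the muscle sum. In the germ line sum MU14 replicate 1, at 22.60 CPM, was level with replicate 2 at 22.58 and above replicate 3 at 16.2. MU17 replicate 2 was at 8.79 CPM there, against 7.49 in replicate 1. The summed malpighian tubule genes had r = 0.76 with the glue level, at no more than 0.626 to 1.91 CPM. For the other lists r was 0.60 for female germ line, 0.31 for muscle and 0.17 for haemocyte genes. It was -0.36 for midgut, -0.002 for nervous system and -0.0007 for prothoracic gland genes. The part of these cell types in the glue levels was not tested.

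**Figure D5:**
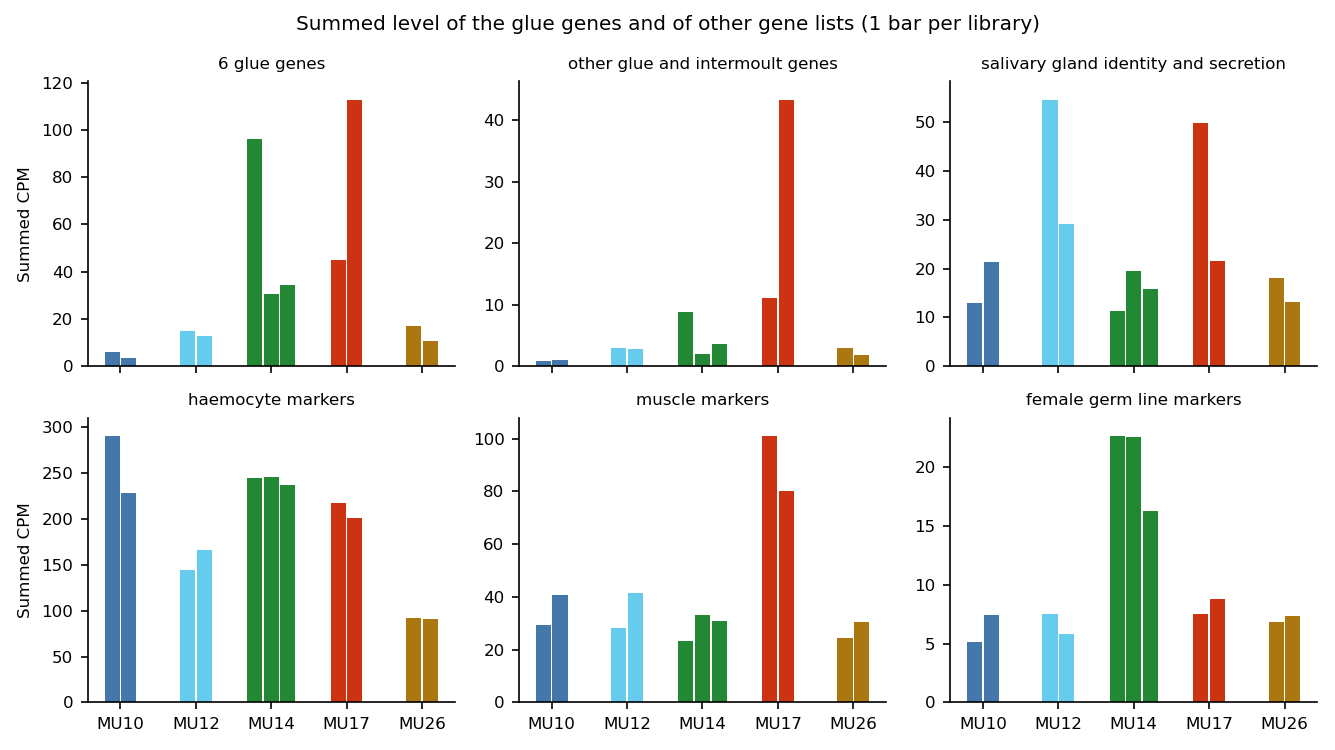
Summed level in CPM of the glue genes and 5 other gene lists, 1 bar per library, each panel on its own linear axis from 0. The glue genes peak at 96.4 and 113 in MU14 replicate 1 and MU17 replicate 2, female germ line markers are high in all 3 MU14 libraries only, and muscle markers in both MU17 libraries only.

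The genes whose levels were most like the summed glue level were sought among the 8409 other tested genes by Pearson's r of log2 CPM over the 11 libraries. The median r was -0.01 and 22 genes were above 0.9. Eig71Ee ranked first, with r = 0.96 and Spearman's rho = 0.97. It was followed by CG8483 (0.95), the histone variant gene His2Av (0.94), CG12310 (0.94), rdo (0.94), dgt2 (0.94), ed (0.93), timeout (0.93), mtSSB (0.92) and lds (0.91). Most of these moved far less than the glue genes, His2Av between 8.25 and 20.9 CPM, whereas Eig71Ee moved between 0.176 and 33.4. Without MU17 replicate 2 and MU14 replicate 1, 2 of these 10 genes, Eig71Ee and CG8483, stayed among the 10 most alike. With the same libraries behind every value, the ranking is a description.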

How the data were processed

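The authors selected poly-A RNA, mapped paired reads to a FlyBase transcriptome of Release 6 with NextGenMap, dropped ambiguous pairs, and added up the read counts of all transcripts of a gene. These counts were deposited without normalisation, with 1 gene length per row (used for values per kilobase). Strain labels gave the groups. Whether replicates were reared separately is not given in the sources used here, so p-values measure the spread between libraries. Members, gene lists, the rule for named genes (members, at most 2 genes per list, all salivary genes with a count, the nearest neighbours and the 10 most alike genes) and alternatives were chosen with earlier results of these data known. Tests covered the 8415 genes averaging 15 or more counts per library (5516 fell below) and used TMM factors, 1 coefficient per strain and quasi-likelihood tests in edgeR 4.0.16 (R 4.3.3), with Benjamini-Hochberg adjustment at 0.05 over all tested genes within each comparison. SE is the absolute log2 difference over the square root of F. Sgs1 reached that mean only through MU14 and MU17 and was left out of counts of calls, a choice made after seeing the data. CPM is the count over the TMM-scaled total. The limit set by a count of 0 is 3 counts, and 95% intervals (exact Poisson and Clopper-Pearson) cover counting error only. Log2 ranges of strain means use a pseudocount of 0.05 CPM, and correlations a prior count of 2. Alternatives were other scalings and filters, DESeq2 1.42.0, limma-voom 3.58.1, a replicate block, leaving out each library and leaving out MU17. The model was tested on simulated data. Positions came from Ensembl release 115, matched by identifier for 13843 of 13931 genes.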

Additional observations from a re-analysis of the deposited data

How the results depend on the processing

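The direction of every called difference of a glue gene, Eig71Ee or Sgs5bis was the same under all alternatives. The number of calls among the 5 glue genes other than Sgs1 was 5 of 5 across strains, 20 of 50 tests in the strain pairs and 11 of 25 for single strains against the rest, and it was 1, 6 and 5 with limma-voom. The share of all tested genes called across strains moved too. It was 48.3% in the edgeR fit, 46% with limma-voom, 59.6% with DESeq2 and 37.2% with a replicate block. It was also lower than in the edgeR fit of all libraries whenever a library was left out. Leaving out 1 library gave 3 to 5 across strains, 10 to 23 in pairs and 6 to 11 against the rest. Across strains 3 were called without MU10 replicate 2 or MU17 replicate 2. Pairs gave 10 without either MU10 library, 13 without MU12 replicate 1 and 12 without MU12 replicate 2, and the comparisons with the rest gave 7, 6 and 7 without MU10 replicate 1, MU10 replicate 2 and MU17 replicate 2. Without strain MU17, which leaves fewer comparisons, 12 pair tests were called. DESeq2 called 29 of the 50 pair tests. Without MU14 replicate 1 and MU17 replicate 2 together, an alternative chosen after seeing the data, 3 genes were called across strains. A replicate block gave 5, 14 and 8, but same-numbered libraries did not all deviate together (14 distinct correlations between -0.30 and 0.27, 5 of them over 0.1), so the numbers were not taken to pair the libraries. Scaling by total counts shifted the median of all genes by up to 0.40 on the log2 scale (MU17 over MU26) and the summed MU17 over MU10 level to 19.9-fold, and leaving out single libraries gave 9.46- to 23.7-fold. With 2 or 3 libraries per strain, and down to 17 Sgs8 and 7 Sgs4 counts in a library, small differences between neighbouring strains were not detectable.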

Other observations

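The late puff genes of the 71E locus, which salivary glands express after the glue genes at the onset of metamorphosis, were almost silent in these libraries. Of 10 such genes 7 had a count and none reached the mean count needed for testing. Their summed level was highest in MU26 replicate 1 with 0.982 CPM and was at most 0.531 CPM in the other libraries, and MU10 replicate 2, MU12 replicate 2, MU14 replicate 2 and MU26 replicate 2 had none. Eig71Eg had the most counts, 32 over the 11 libraries.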
